A study of Capra hircus with 10 samples.

Results

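The CEMIP gene of the goat gave 7 circRNAs, found as every row of the deposited circRNA table whose host gene is CEMIP, among 1327 circRNAs of 945 host genes. Only CEP112 and LMO7 gave more. The gene was selected on the junction and linear reads of its circRNAs in these same groups, which were already known to differ, so all values that compare the groups at CEMIP are descriptions and carry no test. Ribosome-depleted RNA was sequenced as 5 libraries of intramuscular preadipocytes (IMPA), taken at day 0 of adipogenic induction, and as 5 of adipocytes (IMA), taken at day 3, to ask which circRNAs change as the cells differentiate. All cells were cultured from the longissimus dorsi muscle fat of wild-type (WT) male Jianzhou goats aged 7 days, and the induction medium held serum and oleic acid at 50 µmol/L. There were 3 goats, and which goat gave which of the 5 libraries of a group is not stated, so that spreads and standard errors describe libraries and not animals.

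CEMIP, also called KIAA1199 or HYBID, is a protein that binds hyaluronan, a long sugar polymer of the extracellular matrix, and takes part in cutting it into shorter chains. A circRNA forms when the end of a downstream exon is joined back to the start of an upstream exon, a step called back-splicing. The resulting closed loop has no free ends and resists the exonucleases that degrade linear transcripts. A read across this back-splice junction is counted as circular, although trans-splicing or template switching can give such reads too, whereas a non-junction read at the same place is counted as linear.

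The data hold 121334 junction reads, 9622 to 15553 per library, and 1409 of them came from CEMIP, the sixth most of the 945 host genes. The smallest count above 0 was 2 reads, and a count of 0 allows up to 3 reads. The labelled cell types could be checked only through host genes of circRNAs. The share of all goat genes that are hosts was not computed, so absence of a marker here is not read as absence of its RNA. Of 26 adipocyte genes only PLIN2, which coats lipid droplets, was a host. Its summed level was 163 to 353 TPM in IMPA and 596 to 935 in IMA. TPM here means junction reads per 1000000 junction reads of the library, with no term for length. Marker levels in this paragraph are TPM as deposited. Normalized TPM, used below, is the same measure after TMM scaling. Of 24 preadipocyte and fibroblast genes FBN1 had reads, at 963 to 1554 in IMPA and 1192 to 1840 in IMA, while the circRNA of TWIST2 had 0 reads in every library, and no gene of the endothelial list (6) or of the blood and immune list (5) was. Of 31 striated muscle genes 5 were hosts (FHOD3, MYBPC1, MYPN, PAX7 and STAC). Summed they gave 989 to 1873 TPM in IMPA libraries, against 2961 to 5179 in IMA libraries. The sum of these muscle genes moved with the groups that are compared below. PAX7 itself overlapped between the groups, with 11 to 19 junction reads in IMPA and 8 to 19 in IMA. Its log2 fold change was 0.13, with a standard error of 0.29. The other muscle hosts had more junction reads in IMA. MYBPC1 had 0 in every IMPA library and 5 to 10 in IMA, and MYPN had 2 to 3 and 7 to 14. STAC had 0 to 5 and 5 to 10, and FHOD3 had 0 to 2 and 3 to 6. The part of the muscle genes in the CEMIP values was not tested. The fraction of clean reads mapped to 1 place, from the study's library totals, also moved with the groups, being lower in every IMA library than in every IMPA library, and its part was likewise not tested. Adipocyte markers such as PPARG, FABP4 and ADIPOQ and muscle markers such as TTN, MYOD1 and MYOG were not host genes in the table.

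All 7 circRNAs lie on the plus strand of chromosome 21 of the goat, in the authors' coordinates (build not given in the sources used here), and their listed parts are exons. They used 14 exons, 3 upstream acceptors and 7 downstream donors. The acceptor at 26357348 opened 4 of them: circ_0009656 (to 26361854), circ_0009657 (to 26369607), circ_0009658 (to 26371188) and circ_0009659 (to 26378109). The acceptor at 26396311 opened circ_0009676 alone (to 26399196), and the acceptor at 26404025 opened circ_0009677 (to 26405703) and circ_0009678 (to 26410808). Thus 6 of 7 shared their acceptor with another circRNA, against 20.7% of all 1327, and 0 of 7 shared their donor, against 12.7% of all. The percentages over all include circRNAs that are the sole circRNA of their host gene, which have no partner in the gene to share with.

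**Figure D1:**
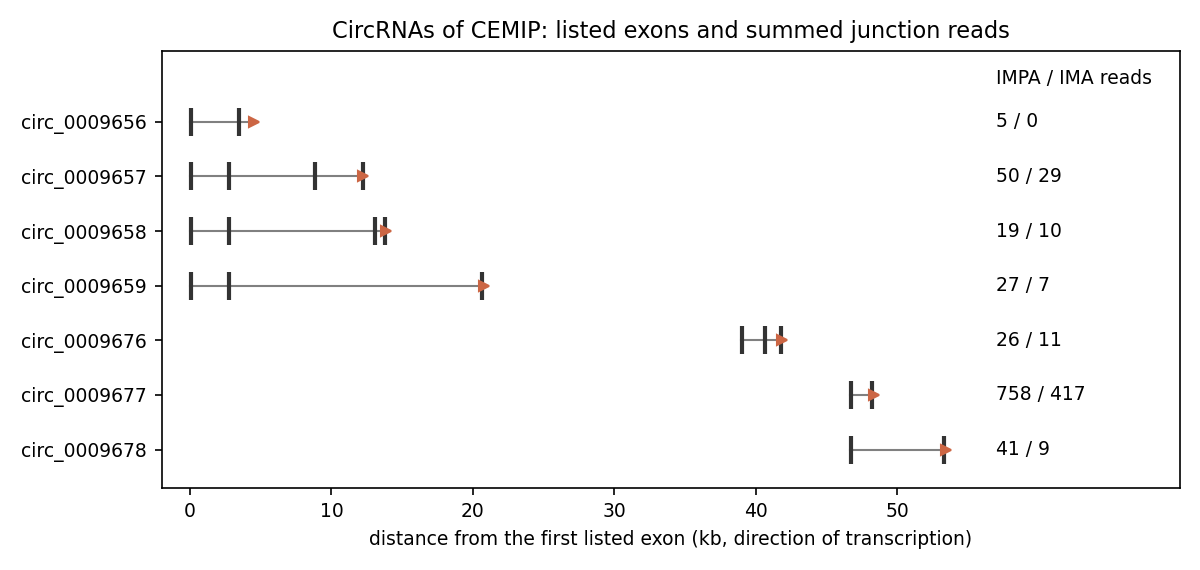
Each line spans 1 CEMIP circRNA from acceptor to donor (arrowhead), with distance from the first listed exon in kb on the x axis; the ticks mark exon centres, not exon widths, and the numbers give junction reads summed over 5 IMPA and 5 IMA libraries. The circRNAs start at 3 acceptors, and circ_0009677 holds 758 and 417 of the reads.

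The exons of the circles differed mostly at the downstream end. The exon 26357348 to 26357457 (110 nt) was in all 4 circRNAs of the upstream acceptor, and the exon 26360038 to 26360184 (147 nt) in 3 of them. In circ_0009656 the exon 26360750 to 26360888 took its place, and this exon ended before the circRNA's own end at 26361854. The other 6 circRNAs ended on exon ends, as did 78.2% of all exonic circRNAs. The exon 26404025 to 26404205 (181 nt) was shared by circ_0009677, which joined it to the exon 26405488 to 26405703 (216 nt), and by circ_0009678, which joined it to the exon 26410609 to 26410808 (200 nt). Spliced lengths were 249 nt for circ_0009656, 508 nt for circ_0009657, 475 nt for circ_0009658, 449 nt for circ_0009659, 347 nt for circ_0009676, 397 nt for circ_0009677 and 381 nt for circ_0009678, where the median of all circRNAs was 320 nt.

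The study designed a pair of quantitative PCR primers for circ_0009677, shown because they are the only sequences of a CEMIP circRNA among the sources used here. The study's text names the circRNAs that it measured by quantitative PCR, and circ_0009677 is not among them. Both primers are written 5′ to 3′ in lower case, and they hold 60% and 55% G and C.
circ_0009677 sense primer: cctacctcaccaaggacgac
circ_0009677 antisense primer: aggcgttgttcagacggaag

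Most circular reads of the gene came from circ_0009677, which had the eighth highest mean TPM of the 1327 circRNAs. It held 758 of 926 CEMIP junction reads in IMPA (81.9%, exact 95% interval 79.2 to 84.3%) and 417 of 483 in IMA (86.3%, 82.9 to 89.3%). By library its share of the gene's junction reads was 80.9%, 85.8%, 80.9%, 79.9% and 82.3% in IMPA1 to IMPA5 and 80.4%, 86.4%, 94.8%, 87.6% and 80.8% in IMA1 to IMA5. The groups overlapped, with means of 82.0% ± 2.32 and 86.0% ± 5.87 (SD, n = 5 each), and IMA3 was the highest library. Without molecular identifiers, every interval on reads given here covers the error of counting and nothing else.

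The junction reads of circ_0009677 were 178, 121, 157, 111 and 191 in IMPA1 to IMPA5. They were 74, 76, 109, 78 and 80 in IMA1 to IMA5. All IMA libraries were below all IMPA libraries, with IMA3 (109) next to IMPA4 (111). On the scale of normalized TPM the IMPA level was 11396 ± 1534 and the IMA level 7565 ± 817 (SD, n = 5 each). The edgeR model put the log2 fold change at -0.58, with a standard error of 0.12. No IMA value (6529 to 8716) reached an IMPA value (9264 to 12994), and of all 1294 circRNAs in the model 2.32% had every IMA library below every IMPA library and 2.24% had every one above. By this fold change circ_0009677 was at place 185 of 1294 from the lowest. In bulk samples, fewer cells of a type and less RNA per cell cannot be told apart.

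Far below it stood circ_0009657, the longest spliced circle of the gene. Its junction reads were 13, 4, 9, 9 and 15 in IMPA1 to IMPA5 and 6, 7, 4, 5 and 7 in IMA1 to IMA5. The groups overlapped, since IMPA2 had as few reads as the lowest IMA library. The IMPA level was 741 ± 258 normalized TPM and the IMA level 535 ± 142 (SD, n = 5 each). The log2 fold change was -0.40 with a standard error of 0.38, about the size of the change itself, and with library sizes taken from uniquely mapped or from clean reads it was -0.20 or -0.67, and -0.27 without IMA3.

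The other 5 circRNAs had at most 12 reads in any library. The reads of circ_0009678 were 8, 12, 12, 3 and 6 in IMPA1 to IMPA5 and 2, 2, 2, 0 and 3 in IMA1 to IMA5. The groups met at 3 reads, in IMPA4 and IMA5. Its summed reads, relative to the junction reads of each group, were 0.278 times as many in IMA as in IMPA (exact 95% interval 0.119 to 0.580).

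The reads of circ_0009659 were 7, 4, 9, 4 and 3 in IMPA and 0, 3, 0, 2 and 2 in IMA, in library order. The groups met at 3 reads, and the ratio of the summed reads was 0.328 (0.121 to 0.772). The reads of circ_0009676 were 5, 0, 5, 7 and 9 in IMPA and 6, 0, 0, 2 and 3 in IMA. Here IMPA2, IMA2 and IMA3 had none and the groups overlapped, with a ratio of 0.535 (0.239 to 1.12). The reads of circ_0009658 were 7, 0, 2, 2 and 8 in IMPA and 4, 0, 0, 2 and 4 in IMA, with a ratio of 0.666 (0.277 to 1.51), and the same 3 libraries had none. Finally, circ_0009656 had 2 reads in IMPA1, 3 in IMPA4 and 0 in the other libraries, so both groups lay at or under the limit of 3 reads and no fold is given.

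**Figure D2:**
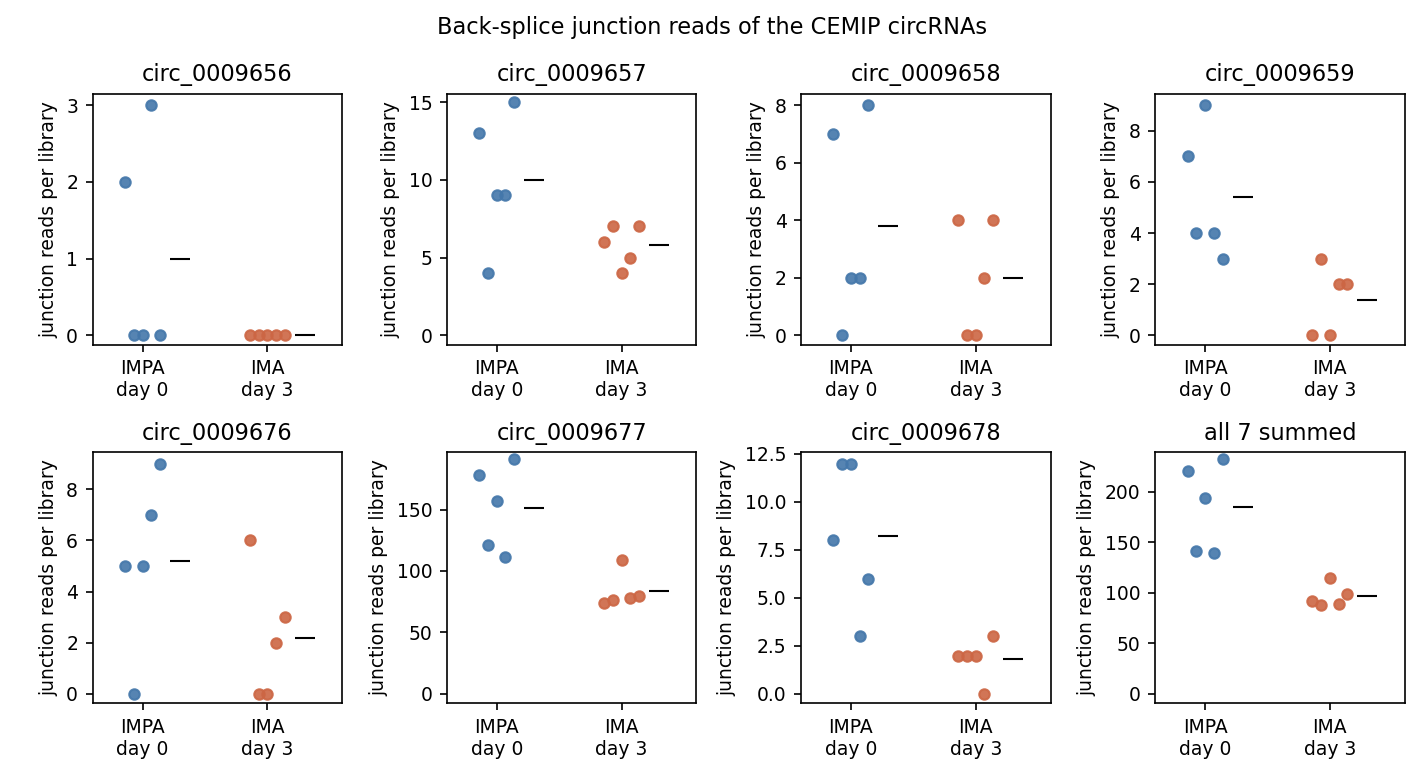
Back-splice junction reads per library (y axis, raw reads, scale set per panel) for the 7 CEMIP circRNAs and their sum, with 5 IMPA libraries (blue) and 5 IMA libraries (orange) as points and the group mean as a bar. The groups separate for circ_0009677 and for the sum and meet or overlap for the others.

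Ordered by mean normalized TPM in IMPA, circ_0009677 (11396) was followed by circ_0009657 (741), circ_0009678 (632), circ_0009659 (411), circ_0009676 (383) and circ_0009658 (271). In IMA the order after circ_0009677 was circ_0009657 (535), circ_0009676 (203), circ_0009658 (187), circ_0009678 (162) and circ_0009659 (134). Each pair of neighbours after circ_0009677 overlapped between libraries, so that the order of neighbours does not stand beyond their spread. In IMA, however, every library of circ_0009657 (320 to 671) lay above every library of circ_0009678 (0 to 287) and of circ_0009659 (0 to 281). The acceptor at 26404025 gave 86.3% of the CEMIP junction reads in IMPA (exact 95% interval 83.9 to 88.4%) and 88.2% in IMA (85.0 to 90.9%), and the acceptor at 26357348 gave 10.9% (8.97 to 13.1%) and 9.52% (7.06 to 12.5%). The number of CEMIP circRNAs with reads was 7, 4, 6, 7 and 6 in IMPA1 to IMPA5 and 5, 4, 3, 5 and 6 in IMA1 to IMA5.

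Summed over the gene, the junction reads were 220, 141, 194, 139 and 232 in IMPA1 to IMPA5 and 92, 88, 115, 89 and 99 in IMA1 to IMA5. No IMA library reached an IMPA library. CEMIP thus gave 1.37% of all junction reads in IMPA and 0.902% in IMA, and the summed normalized TPM was 13933 ± 1950 and 8775 ± 590, respectively (SD, n = 5 each).

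At circ_0009677 and circ_0009657 the linear reads were lower in IMA by more than the circular reads were. Non-junction reads at circ_0009677 were 1386, 1196, 1522, 1321 and 2068 in IMPA1 to IMPA5 and 423, 415, 449, 407 and 437 in IMA1 to IMA5. Non-junction reads at circ_0009657 were 1496, 1150, 1608, 1395 and 1987 in IMPA1 to IMPA5 and 435, 387, 422, 383 and 412 in IMA1 to IMA5. At both places the lowest IMPA library was well above the highest IMA library, and IMPA5 was the highest of all.

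After normalization over the 690 circRNAs with non-junction reads in every library, the IMPA level at circ_0009677 was 7049 ± 745 reads per 1000000 and the IMA level 3037 ± 253 (SD, n = 5 each). The log2 fold change was -1.22, with a standard error of 0.07. At circ_0009657 it was 7196 ± 663 and 2906 ± 257, a log2 fold change of -1.31 with a standard error of 0.07. The groups did not overlap at either, and 10% of the 690 had every IMA library below every IMPA library, with 12.2% the other way round. These were the lowest fold changes of the 690, ahead of EBF3 (circ_0011005, -1.10 with a standard error of 0.12), a transcription factor gene, and the median was 0.00. The other 5 CEMIP circRNAs lacked non-junction reads in the libraries where they were not called and were not in this model, and where they were called they had 1074 to 2296 in IMPA and 372 to 473 in IMA. All 7 places read the linear RNA of the same gene, so they are not independent: within a library the highest place had 1.06 to 1.38 times the reads of the lowest.

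**Figure D3:**
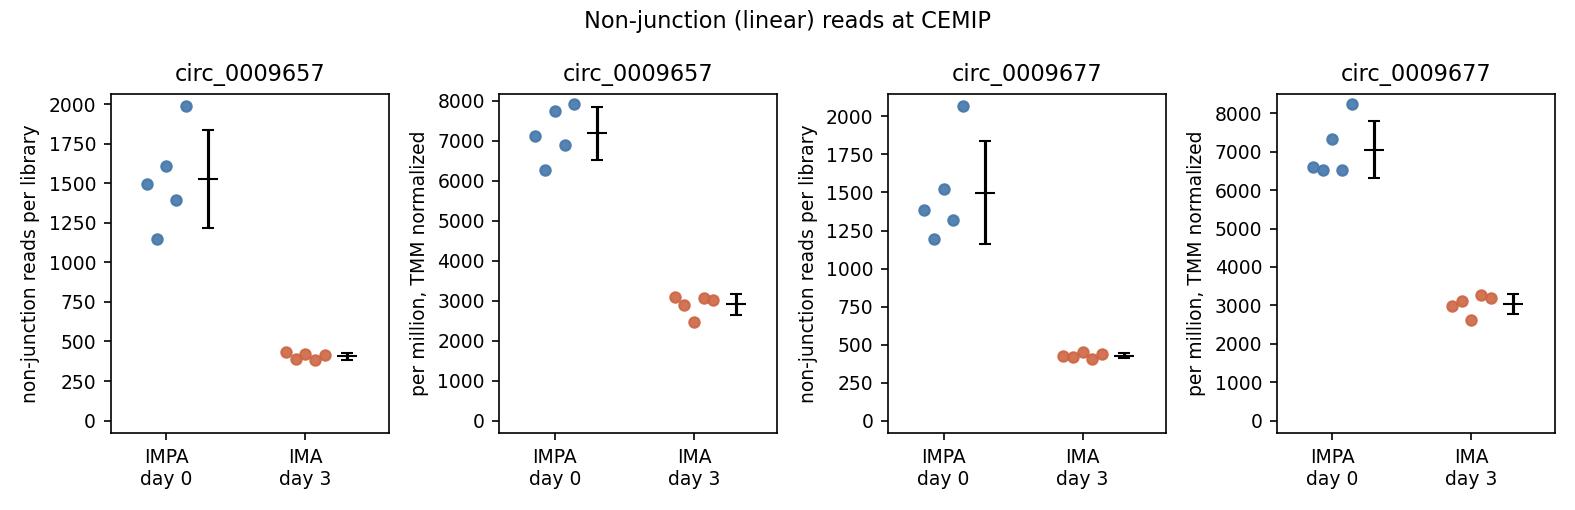
Non-junction reads at circ_0009657 and circ_0009677 per library, as raw reads and as reads per 1000000 after TMM normalization (y axes), for 5 IMPA (blue) and 5 IMA (orange) libraries, with mean and SD in black. The IMA libraries lie at 383 to 449 raw reads and every IMPA library at 1150 or more.

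The circular share, with each junction read counted 2 times against the non-junction reads as the rest of the total, was therefore higher in IMA at these 2 circRNAs. At circ_0009677 it was 20.4%, 16.8%, 17.1%, 14.4% and 15.6% in IMPA1 to IMPA5 and 25.9%, 26.8%, 32.7%, 27.7% and 26.8% in IMA1 to IMA5. The groups did not overlap, and IMA3 stood highest. The means were 16.9% ± 2.27 and 28.0% ± 2.70 (SD, n = 5 each), a difference of 11.1 percentage points, and 4.93% of the 690 places had every IMA library above every IMPA library, with 0.145% the other way round. The difference was at place 35 of 690, where the median was 1.68 points and 73.8% of the places had a higher mean share in IMA. A higher share in IMA was thus found at most other places too.

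At circ_0009657 the share was 1.71%, 0.691%, 1.11%, 1.27% and 1.49% in IMPA1 to IMPA5 and 2.68%, 3.49%, 1.86%, 2.54% and 3.29% in IMA1 to IMA5. These groups did not overlap either, with means of 1.25% ± 0.387 and 2.77% ± 0.647 (SD, n = 5 each), but they rest on 4 to 15 junction reads per library. The difference of 1.52 points was at place 357 of 690, below the median. On the log2 scale the ratio of junction to non-junction reads was higher in IMA by 0.94 at circ_0009677 and by 1.20 at circ_0009657, beside a median of 0.32 over the 690 places. The share at circ_0009678 did not separate the groups, at 1.27%, 2.19%, 1.77%, 0.538% and 0.646% in IMPA1 to IMPA5 and 1.05%, 1.06%, 0.924% and 1.55% in IMA1, IMA2, IMA3 and IMA5, with no reads in IMA4. All 4 of these IMA values lay within the IMPA range. Where reads were present, circ_0009658 had shares of 0.228 to 0.825% in IMPA libraries and 0.909 to 1.73% in IMA libraries, circ_0009659 of 0.287 to 1.10% and 0.913 to 1.44%, and circ_0009676 of 0.651 to 1.12% and 0.957 to 2.70%. These ranges leave out the libraries with 0 junction reads and rest on 2 to 9 reads each, and circ_0009656 had reads in IMPA alone (0.253% and 0.398%).

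**Figure D4:**
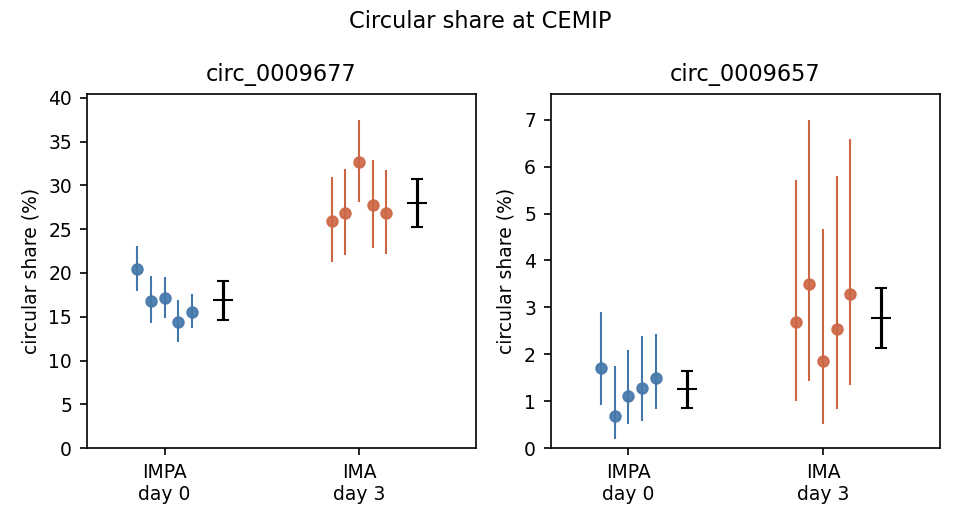
Circular share in percent (y axis, scale set per panel) at circ_0009677 and circ_0009657 for 5 IMPA (blue) and 5 IMA (orange) libraries, with the exact 95% counting interval as a line through each point and the mean and SD in black. The circ_0009677 shares are 14.4 to 20.4% in IMPA and 25.9 to 32.7% in IMA.

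**Figure D5:**
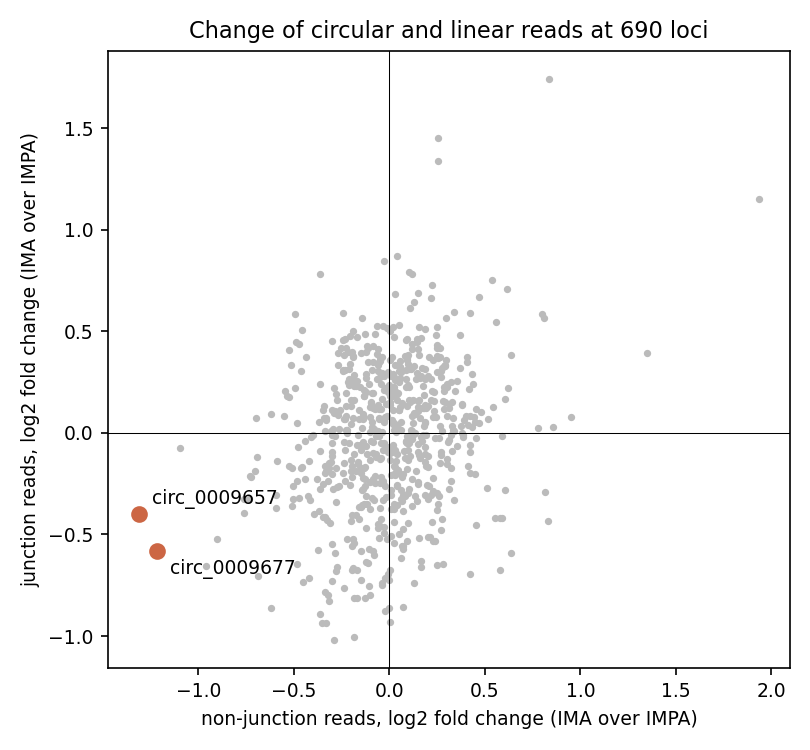
Log2 fold change (IMA over IMPA) of non-junction reads (x axis) against that of junction reads (y axis) for 690 circRNAs (grey), with the CEMIP circRNAs in orange. Both lie at the left edge, at -1.31 and -1.22 on the x axis, and at -0.40 and -0.58 on the y axis.

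Other genes of hyaluronan biology were looked up among the host genes. The share of all goat genes that host a circRNA was not computed, so the count below is not read as low or high. Of 36 gene symbols (CEMIP2 and TMEM2 name the same gene) for proteins that make, cut, bind or carry hyaluronan, among them the synthases HAS1, HAS2 and HAS3, the hyaluronidases HYAL1 and HYAL2 and the receptor CD44, VCAN alone was a host. VCAN encodes versican, a large proteoglycan that binds hyaluronan in the matrix. Its circ_0003788 had 4 to 8 junction reads in IMPA and 4 to 12 in IMA, which overlap, and 442 ± 111 and 597 ± 283 normalized TPM (SD, n = 5 each). The log2 fold change was 0.34 with a standard error of 0.43 (edgeR adjusted p = 0.680), so 0 of 1 passed 0.01 in either direction, as against 0.464% of 1294 higher and 0.464% lower over all circRNAs. The unadjusted p was 0.311, and the adjusted p was 0.436 to 0.934 under the other settings and tools.

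The nearest circRNAs with reads on each side of CEMIP were far off. On the upstream side circ_0009611 of IQGAP1, a scaffold protein of the cytoskeleton, lay 4.95 Mb away, with 2 to 9 junction reads in IMPA libraries against 3 to 11 in IMA libraries. Its log2 fold change was 0.38 ± 0.47 (standard error), short of the threshold (edgeR adjusted p = 0.673). On the downstream side circ_0009694 of UBE2Q2, a ubiquitin-conjugating enzyme, lay 4.32 Mb away, with 5 to 8 reads against 4 to 7. Its log2 fold change was 0.05 ± 0.45 (standard error), also short of it (edgeR adjusted p = 0.963). Their non-junction reads had log2 fold changes of -0.04 (standard error 0.06) and 0.13 (standard error 0.11), neither past the threshold (edgeR adjusted p = 0.639 and 0.383).

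Over the 10 libraries, the circRNAs whose log2 normalized TPM followed circ_0009677 most closely, of 324 with a mean count of at least 10, were circ_0011330 of RARB (r = 0.87), circ_0009231 of CEP112 (r = 0.86), circ_0005478 of SLTM (r = 0.85), circ_0010171 of PLXND1 (r = 0.83) and circ_0008471 of LARP1B (r = 0.83). RARB encodes a retinoic acid receptor, PLXND1 a semaphorin receptor and LARP1B an RNA-binding protein. The points share 2 groups and the library scaling, and with group means removed r was 0.26 to 0.55. The log2 fold changes of their non-junction reads, where CEMIP had -1.22 at circ_0009677, were -0.10, 0.00, -0.30, -0.31 and 0.55 in the same order. Among the other CEMIP circRNAs r with circ_0009677 was 0.24 (circ_0009676) to 0.69 (circ_0009678).

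The deposited list of predicted miRNAs, which holds names and no scores or sites, paired the 7 CEMIP circRNAs with 66 miRNAs, of which 47 were listed for 1 of them. Entries marked as junction sequence are left out of these counts and given at the end of this section. A miRNA is a short RNA that pairs with other RNAs and represses them, and such a prediction is a match of letters and not a measured contact. The number of miRNAs was 5 for circ_0009656, 15 for circ_0009657, 20 for circ_0009658, 12 for circ_0009659, 8 for circ_0009676, 21 for circ_0009677 and 15 for circ_0009678, beside a median of 9 over all circRNAs. For circ_0009677 this was 5.29 per 100 nt, where the median was 2.90, and 4.97% of all circRNAs had at least as many. These are counts of names, and the names of a family mostly come together, so they are not counts of separate sites.

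The predictions of circ_0009677 fell into families. All 9 listed names of the let-7 and miR-98 family were paired with it and with no other CEMIP circRNA. This family was paired with 23 circRNAs (1.73% of all), of which circ_0009677 had the highest mean TPM. All 23 were paired with all 9 names, so this is no trait of circ_0009677 among them. All 6 names of the miR-17, miR-20, miR-93 and miR-106 family were paired with both circ_0009677 and circ_0009678, and with 32 circRNAs in all (2.41%).

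Of the 19 miRNAs listed for several CEMIP circRNAs, most were listed for exactly the circRNAs that share an exon. There were 9 miRNAs listed for exactly the circRNAs that hold the exon 26404025 to 26404205, among them miR-17-5p, miR-128-5p and miR-143-5p. For the exon 26360038 to 26360184 there were 4 (miR-10a-5p, miR-10b-5p, miR-18a-3p and miR-504), and for the exon 26357348 to 26357457 there were 3 (miR-221-5p, miR-543-5p and miR-874-3p). The exceptions were miR-432-3p (circ_0009658, circ_0009677 and circ_0009678), miR-876-3p (circ_0009676 and circ_0009678) and miR-92a-5p (circ_0009659 and circ_0009678), which linked circRNAs without a common exon. The entries of the same list that are marked as junction sequence named miR-221-5p for each of the 4 circRNAs of the upstream acceptor. They also named miR-92a-5p for circ_0009659, miR-145-5p for circ_0009676 and miR-502b-5p for circ_0009678. They named none for circ_0009677, while 75% of all circRNAs had at least 1.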

How the data were processed

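Counts of reads over each back-splice junction in each library were used as the authors deposited them, unnormalized. By the study's methods, ribosomal RNA was removed, clean reads were mapped with HISAT2, and circRNAs were kept where find_circ (at least 2 reads) and CIRI2 gave the same location. The genome build and tool versions are not given in the sources used here. The deposited TPM values are CPM of junction reads (per 1000000, without a length term); recomputed values were within 4.99e-06 of them. The authors' circRNA table gives locations, exons and non-junction reads (its junction reads differ from the count table at 0 places), and 3 rows with a repeated ID were dropped. It also names 10 further samples, which were not used. CEMIP and all gene lists were chosen with earlier results of these data known.

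IMA was compared with IMPA in edgeR 4.0.16 (R 4.3.3) with glmQLFit, TMM and a prior count of 2, over 1294 circRNAs with reads in at least 5 libraries, and likewise for non-junction reads over 690. Adjusted p (Benjamini-Hochberg over all circRNAs, glmQLFTest, threshold 0.01) is printed only for circRNAs that are not of CEMIP. The edgeR log2 fold changes are drawn towards 0 by the prior count, while their standard errors were computed from the coefficient without it. At few reads a change therefore looks smaller beside its standard error than it would without the prior count. Ratios of summed reads and shares have exact 95% intervals. Fold changes of circRNAs with few reads are given as such ratios. The circRNAs named are all of CEMIP, those of the hyaluronan list, the nearest on each side and the 5 with the highest r. DESeq2 1.42.0, limma 3.58.1, other library sizes and filters, a replicate block and leaving out each library were tried. The fits were tested on simulated data.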

Additional observations from a re-analysis of the deposited data

Results flagged for a closer look

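The library IMA3 lay apart from the other IMA libraries in the circular share of circ_0009677, at 32.7% where the others were 25.9 to 27.7%. The same library lay apart in the log2 ratio of junction to non-junction reads at circ_0009677, at -2.04 where the others were -2.52 to -2.38. These are readings of the same counts. Chance alone marks about 1 in 20 groups in this way, and 30 groups of values were checked. Without IMA3 the difference of the circular share between the groups was 9.94 percentage points.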

How the results depend on the processing

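Every CEMIP value kept its direction under the alternatives that were run. With the clean reads as library size the log2 fold change of junction reads of circ_0009677 was -0.91, and that of non-junction reads was -1.96 at circ_0009657 and -1.87 at circ_0009677, while the medians over all circRNAs moved to -0.32 and -0.64. With the uniquely mapped reads it was -0.33 for the junction reads of circ_0009677 (median of all 0.13). Without the factor 2 in the circular share the differences were 7.07 percentage points at circ_0009677 and 0.776 at circ_0009657, by construction. When each library was left out in turn, the junction log2 fold change of circ_0009677 was -0.64 to -0.52 (circ_0009657 -0.54 to -0.27), the non-junction one -1.24 to -1.15 (circ_0009677) and -1.35 to -1.25 (circ_0009657), and the share difference 9.94 to 12.0 and 1.34 to 1.75 percentage points. Libraries of the same replicate number had residual correlations of -0.05 to 0.01. Most circRNAs have few reads, and counting error can hide a shared effect, so this cannot tell whether the numbers pair the libraries. With the replicate number as a block the junction log2 fold change of circ_0009677 was -0.58 and the non-junction one -1.21, and circ_0009657 was at -0.37 and -1.31. The log2 fold change of junction reads of circ_0009659 was -0.97 in the main edgeR fit, -1.63 in DESeq2 and -1.68 in limma. That of circ_0009678 was -1.27 in the main edgeR fit, -1.91 in DESeq2 and -1.75 in limma. The sum of the 7 circRNAs, added after seeing the data, gave -0.66, and the log2 ratio of junction to non-junction reads was also added then. Over all circRNAs 6 were called higher and 6 lower in IMA, against 6 and 2 without TMM, 5 and 20 with clean reads, 8 and 1 with uniquely mapped reads, 3 and 8 with edgeR's filterByExpr, 3 and 10 at a mean count of at least 10, and 5 to 6 and 1 to 6 with each library left out in turn (lowest for lower calls without IMA4). Non-junction reads without a filter were not run, because a missing value there is no zero. With 0 to 15 reads per library, changes of the circRNAs other than circ_0009677 are not detectable at this depth unless large.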
